A study of Mus musculus with 6 samples.

Results

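Solute carriers are the membrane proteins that move amino acids, sugars, organic acids, ions, nucleosides and vitamins into, out of and within cells. In the mouse urogenital ridge they were measured by 128 probes for 121 genes, out of 291 solute carrier probes for 259 genes among the 20289 probes of the array. The members were chosen by name and by level. A probe entered if its only annotated gene had a symbol of the Slc series (the adaptor genes Slc9a3r1 and Slc9a3r2 left out) and its deposited intensity averaged at least 0.95 over the 6 arrays, a limit close to the median probe of each array (0.956 to 0.966). The 128 probes covered 39 of the 50 solute carrier families on the array. The probes nearest the limit on the inside were Slc40a1 at 0.960, Slc16a4 at 1.0 and Slc35f5 at 1.02, and those nearest it on the outside were Slc46a2 at 0.941, Slc19a2 at 0.937 and Slc16a7 at 0.935.

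Both genotypes, of the Mf1 mouse strain, were compared at E11.5, when the gonad has not yet taken on a sex. The KO group was homozygous for a deletion of Wt1, the Wilms tumor gene, whose zinc finger protein regulates transcription and is needed for the kidney and the gonad, and the WT group was wild type. Each group consisted of 3 one-colour CodeLink arrays, and each array holds pooled RNA of urogenital ridges from 5 embryos (4 were female, 1 was male) staged at 11 to 12 tail somites. The submitters describe 3 measurements per genotype without saying if each had embryos of its own. The p-values therefore measure only the spread between arrays, which may be technical. No tissue-specific driver is named, so the deletion is taken to be present throughout the embryo.

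Solute carriers work by alternating between shapes that open to one side of a membrane and then to the other. Some carry 1 substrate down its gradient, others exchange substrates or use the gradient of sodium or protons, and a large family in the inner mitochondrial membrane links mitochondria to the cytosol. Several need a partner subunit to reach the surface, as the amino acid exchangers of family 7 need a heavy chain of family 3. In the embryo they feed growing tissue before the kidney works, and several members are best known from the later kidney tubule, where they reclaim amino acids and phosphate.

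Solute carriers moved in both directions. At the threshold without a minimum change they were called about as often as other probes of the same brightness. Of the 128 probes, 40 were higher in KO and 28 lower in KO at an adjusted p under 0.05 (limma, Benjamini-Hochberg over all 15062 tested probes), and 60 did not pass. That is 53.1% of the solute carrier probes, against 53.2% of the 10119 tested probes with a mean intensity of at least 0.95 and 41.3% of all tested probes. The share higher in KO was 31.2%, against 32.0% of equally bright probes and 24.1% of all tested probes. The share lower in KO was 21.9%, against 21.2% of equally bright probes and 17.2% of all tested probes. Arrays of the 2 genotypes did not overlap for 86 of the 128 probes (67.2%), against 63.4% of equally bright and 52.8% of all tested probes. These shares of called solute carriers are near the backgrounds. The median log2 change, KO minus WT, was 0.10 for the solute carriers, 0.09 for equally bright probes and 0.09 for all tested probes.

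Changes were mostly modest. The called probes differed by 1.16-fold to 2.97-fold where KO was higher, with a median of 1.43-fold, and by 1.16-fold to 2.15-fold where KO was lower, with a median of 1.49-fold. At 1.5-fold or more, 17 probes (13.3%) were higher in KO, against 7.40% of equally bright and 6.83% of all tested probes, and 13 (10.2%) were lower in KO, against 9.14% and 8.68%. At 2-fold or more, 4 (3.12%) were higher in KO, against 1.17% and 1.57%, and 2 (1.56%) lower in KO, against 2.87% and 3.12%. The share higher in KO with a minimum change was thus above the background, and that difference in shares was not tested. Both probes of Slc25a38 are among the 17, and some of the 17 depended on scaling. Under quantile normalization Slc38a2 (log2 change 0.44), Slc39a6 (0.50), and the brighter probes of Slc25a38 (0.47) and Slc25a24 (0.34) were under 1.5-fold. Slc2a1 did not pass there (adjusted p = 0.0627). The shares at 1.5-fold were not counted under other normalizations. The 60 probes that did not pass had log2 changes between -0.29 and 0.37, and for 19 of them the genotypes did not overlap. Counting each gene by its brightest probe gave 37 genes higher in KO, 28 lower in KO and 56 that did not pass.

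**Figure D1:**
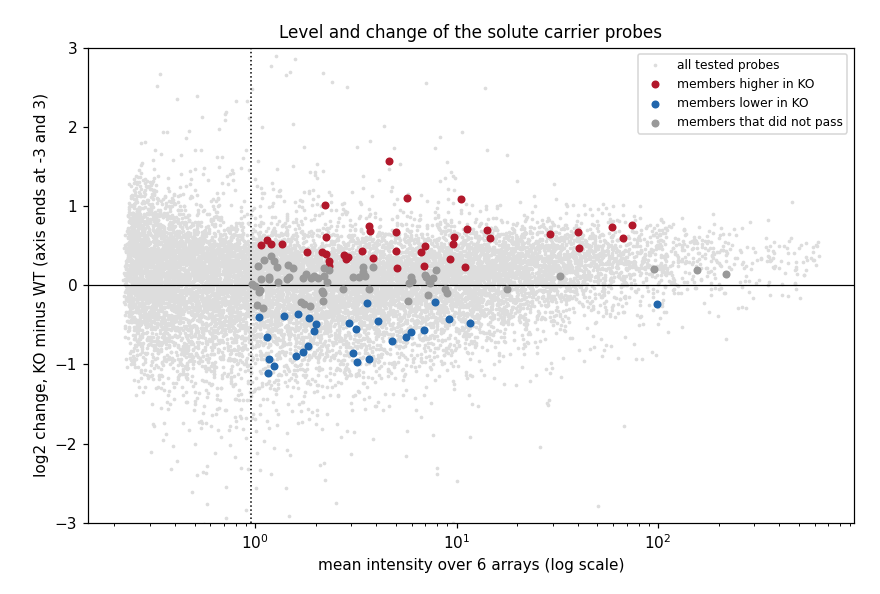
Mean intensity of each solute carrier probe over the 6 arrays (x axis, log scale) against its log2 change, KO minus WT (y axis), over the cloud of other tested probes. Red points passed the test as higher in KO (40), blue as lower in KO (28) and grey did not pass (60); 18 tested probes lie outside the y axis, and the dotted line marks the limit of 0.95.

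The direction of change varied with probe level among the solute carriers. Of 43 probes with a mean intensity from 0.95 to under 2, 5 were higher in KO and 12 lower in KO, which is 11.6% and 27.9%, against 21.2% and 23.1% of the other tested probes in that range. Of 67 probes from 2 to under 10, 24 were higher in KO and 14 lower in KO, which is 35.8% and 20.9%, against 25.8% and 26.1% of other probes. Of 18 probes at 10 or more, 11 were higher in KO and 2 lower in KO, which is 61.1% and 11.1%, against 47.6% and 13.5% of other probes. The median log2 change of the same ranges was 0.04, 0.10 and 0.53 for solute carriers, against 0.06, 0.02 and 0.20 for other probes. The values of the brightest range depended on scaling. Under quantile normalization 9 of its 18 probes were higher in KO and 5 lower in KO (27.5% and 25.8% of other probes), with a median log2 change of 0.29, against 0.01 for other probes. In all, 8 members averaged over the intensity limit in 1 genotype only (Slc34a3 and Slc44a1 in KO, and Slc31a1, Slc25a20, Slc35f5, Slc29a1, Slc22a5 and Slc45a3 in WT). The limit itself favours a difference in these, and without them 38 of 120 probes were higher in KO and 23 lower in KO. All 8 lay in the dimmest range, where without them 3 of 35 probes (8.57%) were higher in KO and 7 (20.0%) lower in KO.

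The deleted gene and the cell type markers moved with genotype. The brighter Wt1 probe read 14.3, 15.7 and 14.2 in KO, against 44.1, 43.6 and 39.1 in WT, and the dimmer probe averaged 0.289 in KO and 0.855 in WT. Of 11 tested markers of the gonadal primordium and coelomic epithelium, 9 were lower in KO, and their summed intensity ranged from 21.9 to 23.1 in KO, against 78.1 to 82.3 in WT. In this and the other lists, each gene is read from its brightest probe, and the sum runs over all markers with values on all arrays, tested or not. Of 12 neuron and neural crest markers, 9 were higher in KO (sum 99.4 to 101 in KO, against 59.9 to 61.1 in WT). Of 9 tested skeletal muscle markers, 7 were higher in KO (sum of 10 markers 56.1 to 61.7 in KO, against 44.7 to 47.6 in WT). Of 8 tested liver and gut endoderm markers, 4 were higher in KO and 2 lower in KO (sum of 10 markers 26.5 to 27.6 in KO, against 9.52 to 10.6 in WT). The 8 nephric duct and mesonephros markers summed to 38.0 to 40.8 in KO, against 33.8 to 35.6 in WT. Of the 7 tested, 3 were higher in KO and 2 lower in KO. The 10 erythroid markers summed to 1488 to 1592 in KO, against 1489 to 1532 in WT, with 1 of the 9 tested higher in KO. The 7 endothelial markers summed to 71.7 to 72.4 in KO, against 72.5 to 74.4 in WT. Of the 6 tested endothelial markers, 1 was higher in KO and 4 lower in KO. Pax8, Pdx1, Myog and Cdh5 were at or under the limit for dim probes in both genotypes. The part of these cell types in the solute carrier results was not tested, and in whole tissue fewer cells of a type and less RNA per cell cannot be told apart.

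The spread between arrays was wider in KO. The median coefficient of variation of the 128 probes was 8.26% among KO arrays and 5.28% among WT arrays. KO array 1 was the KO array farthest from the KO median for 65 of the 128 probes. Without it, 45 probes were higher in KO and 28 lower in KO.

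In total, 6 probes passed the test at 2-fold or more, and none of them had overlapping genotypes. Slc38a5, a sodium-coupled carrier of glutamine, asparagine and other neutral amino acids that exchanges them for protons, gave intensities of 6.45, 7.13 and 7.03 in KO, against 2.34, 2.50 and 2.10 in WT. All KO arrays lay far above all WT arrays, and the log2 change was 1.57 ± 0.09 (standard error; 2.97-fold, adjusted p = 2.88e-07). Slc29a4, a plasma membrane carrier of serotonin, dopamine and other organic cations, read 6.98, 8.09 and 8.09 in KO, against 3.52, 3.71 and 3.56 in WT (log2 change 1.10 ± 0.08, 2.14-fold, adjusted p = 2.29e-06). Slc16a3, the lactate exporter of glycolytic cells, read 12.7, 15.8 and 14.6 in KO, against 6.86, 6.73 and 6.55 in WT (log2 change 1.09 ± 0.09, 2.13-fold, adjusted p = 3.36e-06). In both the KO arrays were more spread than the WT arrays, and that spread was still far smaller than the distance between genotypes. Slc35d1, which brings nucleotide sugars used for chondroitin sulfate into the endoplasmic reticulum, read 3.42, 2.57 and 2.95 in KO, against 1.53, 1.60 and 1.31 in WT (log2 change 1.01 ± 0.12, 2.01-fold, adjusted p = 5.63e-05).

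The 2 probes lower in KO at this size lay close to the intensity limit. Slc25a20, the mitochondrial carnitine/acylcarnitine carrier that lets long-chain fatty acids in for oxidation, read 0.512, 0.882 and 0.843 in KO, against 1.58, 1.54 and 1.55 in WT (log2 change -1.11 ± 0.18, 2.15-fold, adjusted p = 0.000558). Its WT arrays were nearly equal, while KO array 1 was lowest. Slc29a1, an equilibrative nucleoside carrier of the plasma membrane, read 1.08, 0.642 and 0.757 in KO, against 1.57, 1.90 and 1.47 in WT (log2 change -1.02 ± 0.18, 2.03-fold, adjusted p = 0.000808). Here KO array 1 was the highest KO array. The nucleoside and monoamine carriers of family 29 thus included both directions, Slc29a4 higher in KO and Slc29a1 lower in KO. Which probes lie past 2-fold depended on the arrays used, and without KO array 1 there were 3 higher in KO and 3 lower in KO. The count lower in KO was 3 without WT array 1, and 1 without KO array 3 or without WT array 2.

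**Figure D2:**
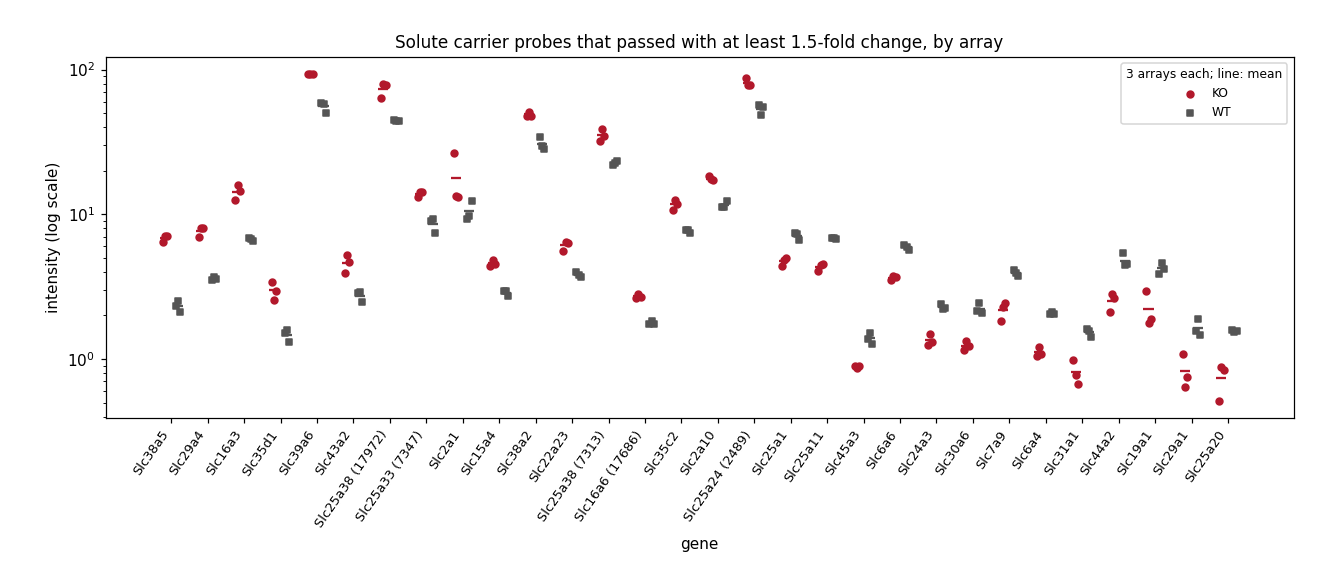
Intensity on each array (y axis, log scale) for the 30 called solute carrier probes with a change of at least 1.5-fold (x axis, by gene, probe number in brackets where a gene has several); round points are KO arrays, square points WT arrays and lines their means. Slc38a5 at 6.45 to 7.13 in KO and 2.10 to 2.50 in WT has the widest gap.

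Promoter sequences show the region where a WT1 site would be sought. WT1 is known to bind GCGTGGGAG and the related sequences GCGTGGGCG and GCGGGGGCG, and ACGTG is the core of the element bound by hypoxia-inducible factors, which are known regulators of Slc16a3. RefSeq promoters (GRCm38.p6, 250 bases before to 50 after each annotated start) were found for 101 of the 121 genes, 144 promoters in all, and were searched on both strands. GCGTGGGAG was present in 2.08% of these promoters, against 0.472% of all 32851 promoters, GCGTGGGCG in 4.17% against 0.612%, GCGGGGGCG in 2.78% against 2.91%, and ACGTG in 25.7% against 19.6%. A gene with several starts counts more than once in these shares, as Slc25a14, with 3 starts, does. Counted by gene, GCGTGGGAG was in 2 of the 101 genes (1.98%, against 0.544% of all genes with a promoter). GCGTGGGCG was in 4 (3.96%, against 0.707%). GCGTGGGAG was found in Slc24a3, lower in KO, and Slc25a14, not called, and GCGTGGGCG in Slc25a1, Slc25a39 and Slc29a1, all lower in KO, and in Slc25a14. For Slc29a1 it lay at 1 of 8 annotated starts. Neither GCGTGGGAG nor GCGTGGGCG was found in the promoters of the 34 genes higher in KO that matched. At the shares over all genes (0.544% and 0.707%), a set of 34 genes would seldom hold either, so their absence says nothing about direction. The GCGTGGGCG hits lower in KO were 3 of 23 matched genes, and the difference was not tested. GCGGGGGCG was found in Slc24a3 and Slc22a5, lower in KO, in Slc35e3, higher in KO, and in Slc4a2, not called. The search says only whether these letters occur in this window. The first 2 sequences are those of the lower-in-KO genes Slc25a1 (chr16:17928170-17928469, minus strand) and Slc24a3 (first of its 2 starts, chr2:145167525-145167824, plus strand), shown for their WT1-type motifs. Those of Slc38a5 (chrX:8271131-8271430, plus strand) and Slc16a3 (chr11:120948817-120949116, plus strand), at least 2-fold higher in KO, hold only ACGTG. The promoters of Slc29a4 and Slc35d1, also at least 2-fold higher in KO, held none of these motifs. By gene, ACGTG was found in 29.4% of matched genes higher in KO, 30.4% of those lower in KO and 34.1% of those not called. These shares rest on 10 of 34, 7 of 23 and 15 of 44 genes, against 21.8% of all genes with a promoter. They were not compared by a test, and the part of hypoxia-inducible factors was not tested. Capitals mark the motifs on either strand, CACGTG holding ACGTG on both, and runs of capitals can join neighbouring or overlapping motifs.
Slc25a1: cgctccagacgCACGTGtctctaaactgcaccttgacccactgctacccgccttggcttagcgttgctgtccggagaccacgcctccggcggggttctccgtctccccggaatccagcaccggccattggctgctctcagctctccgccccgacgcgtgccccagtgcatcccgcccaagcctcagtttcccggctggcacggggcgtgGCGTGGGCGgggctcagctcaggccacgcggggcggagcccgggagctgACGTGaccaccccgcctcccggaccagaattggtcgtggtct
Slc24a3: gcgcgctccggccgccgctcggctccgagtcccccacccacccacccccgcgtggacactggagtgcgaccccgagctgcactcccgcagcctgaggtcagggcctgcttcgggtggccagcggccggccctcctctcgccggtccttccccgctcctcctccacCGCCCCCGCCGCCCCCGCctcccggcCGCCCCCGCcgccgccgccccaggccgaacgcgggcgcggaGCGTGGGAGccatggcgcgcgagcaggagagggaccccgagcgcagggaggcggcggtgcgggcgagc
Slc38a5: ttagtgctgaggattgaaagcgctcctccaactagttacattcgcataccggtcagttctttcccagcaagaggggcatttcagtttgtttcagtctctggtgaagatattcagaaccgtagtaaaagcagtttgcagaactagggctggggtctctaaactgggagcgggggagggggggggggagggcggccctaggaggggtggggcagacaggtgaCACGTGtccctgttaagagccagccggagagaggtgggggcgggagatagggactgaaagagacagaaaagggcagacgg
Slc16a3: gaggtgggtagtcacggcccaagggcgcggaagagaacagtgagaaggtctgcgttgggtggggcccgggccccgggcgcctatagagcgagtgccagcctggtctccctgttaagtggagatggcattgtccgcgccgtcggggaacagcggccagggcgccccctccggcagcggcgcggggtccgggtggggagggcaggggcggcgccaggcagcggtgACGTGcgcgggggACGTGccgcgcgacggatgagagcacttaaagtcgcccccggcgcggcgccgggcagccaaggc

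**Figure D3:**
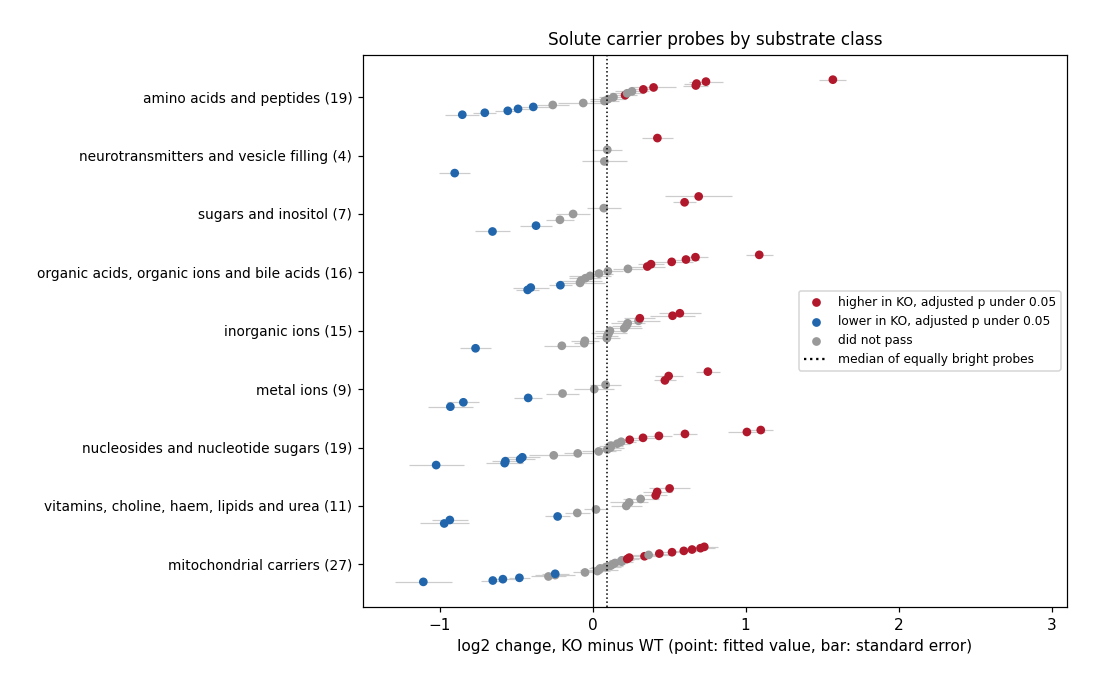
Fitted log2 change, KO minus WT, of the solute carrier probes by substrate class (number of probes in brackets); points are fitted values, bars standard errors, red higher in KO, blue lower in KO, grey did not pass, and the dotted line is the median of equally bright probes (0.09). Every class of 4 or more probes held probes on both sides, and Slc66a2, in no class, is not drawn.

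Among the 19 amino acid and peptide carrier probes, 7 (36.8%) were higher in KO and 5 (26.3%) lower in KO. The median log2 change was 0.14. Class shares here and below compare with 32.0% and 21.2% of equally bright probes and 24.1% and 17.2% of all tested probes. Differences between these shares were not tested. Slc38a2, a sodium-coupled neutral amino acid importer induced by amino acid shortage, read 48.1, 50.9 and 48.0 in KO, against 34.2, 29.9 and 28.3 in WT (log2 change 0.67 ± 0.08, adjusted p = 5.94e-05). Slc43a2, a facilitative carrier of branched-chain and aromatic amino acids, read 3.92, 5.24 and 4.65 in KO, against 2.84, 2.91 and 2.47 in WT (0.74 ± 0.11, adjusted p = 0.000279). The genotypes were apart in both genes, and under quantile normalization the change of Slc38a2 was 0.44. Slc15a4, a lysosomal carrier of histidine and small peptides, read 4.36, 4.83 and 4.57 in KO, against 2.94, 2.93 and 2.72 in WT (0.68 ± 0.08, adjusted p = 5.48e-05), and a dimmer probe of it under the intensity limit was also higher in KO (1.13 ± 0.22, adjusted p = 0.00181). Smaller changes passed for Slc43a1, a relative of Slc43a2, at 0.33, for Slc1a4, an alanine, serine and cysteine carrier, at 0.40, and for 1 probe of Slc38a7, a lysosomal glutamine carrier, at 0.21. These 3 calls were fragile. The call of Slc43a1 ended without WT array 1 (adjusted p = 0.0609), that of Slc1a4, whose KO array 1 lay within the WT range, ended without any array but KO array 1 (0.0794 to 0.153), and that of Slc38a7 likewise (0.0738 to 0.147). Slc38a3, Slc38a4 and Slc38a10 of the same family had log2 changes of 0.10, 0.14 and 0.26 and did not pass.

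The amino acid carriers lower in KO included both kinds of subunit of the heterodimeric exchangers. Slc3a2, the heavy chain that escorts many family 7 carriers to the surface, read 2.54, 2.73 and 2.45 in KO, against 3.88, 3.75 and 3.69 in WT (log2 change -0.55 ± 0.08, adjusted p = 0.000232). Slc7a7, the light chain that forms the cationic amino acid exchanger y+LAT1 with Slc3a2, was also lower in KO, with means of 1.67 ± 0.149 in KO and 2.34 ± 0.158 in WT (SD, n = 3 arrays each). Slc7a9, the light chain of the kidney's cystine carrier, read 1.82, 2.30 and 2.43 in KO, against 4.10, 3.90 and 3.73 in WT (-0.85 ± 0.11, adjusted p = 9.25e-05). All 3 subunit genes had every KO array below every WT array. Slc3a1, the other family 3 gene of the array, averaged 0.188 in KO and 0.125 in WT and was not tested. Slc7a5, Slc7a8 and Slc7a10 of family 7 were not tested either, so the counts do not cover the exchangers as a group. Slc6a6, the taurine importer, read 3.50, 3.72 and 3.69 in KO, against 6.15, 5.97 and 5.67 in WT (-0.70 ± 0.08, adjusted p = 2.68e-05). Its genotypes were as clearly apart. Slc43a3, grouped here by family although it carries purine bases, was lower in KO by a log2 change of -0.39, and that call ended without KO array 2, WT array 1 or WT array 2 (adjusted p = 0.0589, 0.0985 and 0.0890). Slc1a3, Slc7a14 and Slc36a1 did not pass.

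Only 4 probes measured neurotransmitter carriers, and the 2 called ones both handle monoamines. Slc6a4, the plasma membrane serotonin transporter, read 1.05, 1.21 and 1.08 in KO, against 2.04, 2.12 and 2.06 in WT (log2 change -0.90 ± 0.10, adjusted p = 3.34e-05). Every KO array was well below every WT array. Slc18a2, the vesicular monoamine transporter of neurons, read 2.74, 2.50 and 2.20 in KO, against 1.84, 1.85 and 1.83 in WT (0.42 ± 0.10, adjusted p = 0.00494). Slc18a1, its counterpart in chromaffin cells and under the intensity limit, averaged 0.924 in KO and 0.573 in WT (0.69, adjusted p = 0.00430). Both vesicular carriers were higher in KO, as were 9 of the 12 neuron and neural crest markers given above, whose part in the result was not tested. Slc6a3, the dopamine transporter, and Slc6a11, a GABA transporter, had log2 changes of 0.10 and 0.08 and did not pass.

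Of the 7 sugar carrier probes, 2 (28.6%) were higher in KO and 2 (28.6%) lower in KO. The median log2 change was -0.13. Slc2a10, a facilitative glucose transporter family member mutated in human arterial tortuosity, read 18.3, 17.5 and 17.2 in KO, against 11.3, 11.2 and 12.4 in WT (log2 change 0.60 ± 0.07, adjusted p = 5.93e-05). Slc2a1, the main glucose transporter of embryonic tissue and red cells, read 26.5, 13.4 and 13.3 in KO, against 9.25, 9.75 and 12.4 in WT. KO array 1 stood far above the other 2 KO arrays, which were just above the highest WT array. Slc2a1 was called higher in KO with a log2 change of 0.69 ± 0.22 (adjusted p = 0.0236), which without KO array 1 was 0.36 (adjusted p = 0.00415). It ended without WT array 1 (adjusted p = 0.0852) or WT array 2 (0.0792) and under quantile (0.0627) or cyclic loess normalization (0.0733), with no trend in the variance prior (0.115) and with a robust prior (0.184). Slc45a3, of the sugar carrier family 45, was lower in KO at 0.884 ± 0.0153, against 1.39 ± 0.125 in WT (-0.65, adjusted p = 0.000878). Slc37a4, the glucose-6-phosphate carrier of the endoplasmic reticulum, averaged 1.43 in KO and 1.85 in WT (-0.37, adjusted p = 0.0162), a call that ended without WT array 3 (adjusted p = 0.0755). Slc50a1, Slc37a1 and Slc37a2 did not pass.

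The 16 probes for carriers of organic acids, organic ions and bile acids held 6 (37.5%) higher in KO and 3 (18.8%) lower in KO. The median log2 change was 0.07. Of the higher probes, 3 belonged to the monocarboxylate family 16, which carries lactate, pyruvate and ketone bodies. Beside Slc16a3, described above, both probes of Slc16a6, a ketone body carrier in zebrafish liver, were higher in KO. The probe with the larger change read 2.63, 2.83 and 2.67 in KO, against 1.75, 1.82 and 1.75 in WT (0.61 ± 0.09, adjusted p = 0.000163). The other averaged 3.27 in KO and 2.53 in WT (0.36, adjusted p = 0.0244), and its call ended without KO array 2 or any WT array (adjusted p = 0.0507 to 0.0949; log2 change 0.23 without KO array 2). Slc16a13 was lower in KO at a log2 change of -0.21 (adjusted p = 0.0474), ending without any array but KO array 3 (0.0617 to 0.169), and Slc16a4 at -0.02 did not pass. The probe for Bsg, the chaperone that takes Slc16a3 and its relatives to the surface, was under the limit for dim probes in both genotypes.

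In the same class, Slc13a5, the plasma membrane citrate importer, averaged 3.12 ± 0.0896 in KO and 2.39 ± 0.135 in WT (SD, n = 3 arrays each), and Slc22a23, whose substrate is not established, 6.12 ± 0.472 in KO and 3.84 ± 0.144 in WT. Both were higher in KO (log2 change 0.38 and 0.67, adjusted p = 0.00339 and 6.82e-05). Slc13a4, a sulfate carrier, was higher in KO at a log2 change of 0.52 (adjusted p = 0.0107), a call that ended without WT array 2 (adjusted p = 0.0520). Slc22a17, a receptor for the iron-binding protein lipocalin, was lower in KO at 7.79 ± 0.434, against 10.4 ± 0.486 in WT (-0.42, adjusted p = 0.000901). The carnitine carriers Slc25a20 and Slc22a5 were both lower in KO. Both averaged over the intensity limit in WT only, so the limit itself favours that direction. Beside Slc25a20 in mitochondria, Slc22a5, which imports carnitine across the plasma membrane, read 0.824, 0.944 and 0.943 in KO, against 1.17, 1.22 and 1.18 in WT (-0.40 ± 0.12, adjusted p = 0.0169). The genotypes did not overlap, and the call ended without any 1 of the WT arrays (adjusted p = 0.0518 to 0.0705). Its relatives Slc22a4 and Slc22a21, under the limit, had log2 changes of 0.24 and -0.64 and did not pass (adjusted p = 0.758 and 0.152). The bile acid family members Slc10a1 and Slc10a3, the urate exchanger Slc22a12, the lysosomal sialic acid exporter Slc17a5, and Slc22a18 and Slc22a26 did not pass, with log2 changes between -0.08 and 0.23.

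Of the 15 probes for inorganic ion carriers, 3 (20.0%) were higher in KO and 1 (6.67%) lower in KO. In all, 26.7% were called, against 53.2% of equally bright probes, and the median log2 change was 0.11. Slc24a3, a potassium-dependent sodium/calcium exchanger that removes calcium from the cell, read 1.25, 1.48 and 1.32 in KO, against 2.40, 2.21 and 2.26 in WT (log2 change -0.76 ± 0.10, adjusted p = 0.000107). Slc24a2 and Slc8a3, other sodium/calcium exchangers, had positive log2 changes of 0.30 and 0.23 and did not pass. Both members from family 34, the sodium-phosphate cotransporters, were higher in KO. Slc34a3, a phosphate reclaimer of the kidney's proximal tubule, averaged 1.37 in KO and 0.926 in WT (0.57 ± 0.14, adjusted p = 0.00610), and Slc34a2, its counterpart in lung and gut, 1.60 in KO and 1.11 in WT (0.52 ± 0.14, adjusted p = 0.0126). The Slc34a2 call ended without KO array 3 (adjusted p = 0.0514) or WT array 1 (0.0633). Slc34a1, of the same family and under the intensity limit, averaged 0.691 in KO and 0.604 in WT and did not pass (0.20, adjusted p = 0.407). Slc12a4, a potassium-chloride cotransporter that sets cell volume, was higher in KO at a log2 change of 0.31 (adjusted p = 0.0277), and its call ended without KO array 3 or any WT array (0.0521 to 0.112) or with no trend in the variance prior (0.0610). A dimmer Slc12a4 probe, under the intensity limit, was also higher in KO, at 0.715 in KO and 0.313 in WT (1.14 ± 0.32, adjusted p = 0.0128). The anion exchangers Slc4a2 and Slc4a3 and the chloride cotransporters Slc12a2, Slc12a3 and Slc12a7 did not pass, nor did the bicarbonate carrier Slc4a10 and the phosphate importer Slc20a1. Slc12a8 read 125, 95.4 and 88.4 in KO, against 91.3, 87.5 and 86.0 in WT, with KO array 1 apart and the others overlapping (0.21 ± 0.11, adjusted p = 0.162).

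Zinc carriers accounted for 5 of the 6 called probes among 9 for metal ions (66.7% called, against 53.2% of equally bright probes). Most of the class is zinc carriers, with 3 probes of family 30 and 4 of family 39. Slc39a6, which imports zinc at the plasma membrane, read 92.9, 93.7 and 93.6 in KO, against 58.7, 57.8 and 50.2 in WT (log2 change 0.75 ± 0.08, adjusted p = 1.95e-05). Its KO arrays were nearly equal and its lowest was far above the highest WT array. Slc39a7, which releases zinc from the endoplasmic reticulum and Golgi, read 48.4, 44.0 and 49.7 in KO, against 34.8, 33.5 and 34.0 in WT (0.47 ± 0.07, adjusted p = 0.000302). Slc30a4, which moves zinc out of the cytosol into vesicles, read 7.33, 8.59 and 8.57 in KO, against 5.93, 5.24 and 6.17 in WT (0.50 ± 0.09, adjusted p = 0.00110). These 3 were higher in KO on every array. Under quantile normalization the changes of Slc39a6 and Slc39a7 were 0.50 and 0.23, and both still passed. The other 2 zinc members called were lower in KO and are linked to the Golgi and early secretory pathway. Slc30a6, which loads zinc there, read 1.16, 1.33 and 1.22 in KO, against 2.16, 2.44 and 2.08 in WT (-0.84 ± 0.10, adjusted p = 7.01e-05), and Slc39a13, a connective tissue zinc carrier, averaged 1.58 in KO and 2.12 in WT (-0.42 ± 0.09, adjusted p = 0.00278). Slc30a2 and Slc39a3 did not pass. Under the intensity limit, Slc30a1 (-0.61, adjusted p = 0.0270) and a probe of Slc39a5 (-0.90, 0.0385) were lower in KO. Slc39a8 (0.52, 0.0368) was higher in KO, and the other tested probes of these families there did not pass.

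Among copper genes, the Slc31a1 and Slc31a2 probes were lower in KO and the Atp7a and Atp7b probes higher in KO. All lay near or under the intensity limit, and an opposed change of copper import and export was not tested. Slc31a1, the high-affinity copper importer, read 0.978, 0.781 and 0.676 in KO, against 1.62, 1.55 and 1.41 in WT (log2 change -0.93 ± 0.15, adjusted p = 0.000359). Slc31a2, its relative in endosomes, named here for its family although under the intensity limit, averaged 0.602 in KO and 1.24 in WT (-1.07 ± 0.20, adjusted p = 0.00121). All KO arrays lay below all WT arrays in both. Slc31a1 averaged over the intensity limit in WT only, so the limit itself favours that direction. Atp7a, the ATPase that pumps copper out of cells and into the secretory pathway, read 1.30, 0.947 and 1.24 in KO, against 0.329, 0.173 and 0.286 in WT (2.19 ± 0.26, adjusted p = 4.74e-05). WT array 2 was under the limit for dim probes. Atp7b, its counterpart in liver, averaged 0.852 in KO and 0.560 in WT (0.64 ± 0.20, adjusted p = 0.0225). The iron genes were mixed. Slc40a1, the iron exporter, averaged 0.964 in KO and 0.957 in WT and did not pass, while Slc11a2, the ferrous iron importer and under the limit, averaged 0.462 in KO and 1.06 in WT (-1.21 ± 0.18, adjusted p = 0.000234).

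Of the 19 probes for nucleoside and nucleotide sugar carriers, 6 (31.6%) were higher in KO and 5 (26.3%) lower in KO. The median log2 change was 0.12. The class follows the family number, so Slc29a4 is counted here. Family 35, the carriers that supply the Golgi and endoplasmic reticulum with activated sugars and sulfate, made up most of them. Beside Slc35d1, Slc35c2, a Golgi protein linked to fucose on Notch receptors, was higher in KO at 10.7, 12.5 and 11.8, against 7.82, 7.81 and 7.44 in WT (0.60 ± 0.08, adjusted p = 9.43e-05). A dimmer Slc35c2 probe under the intensity limit went the other way, with means of 0.496 in KO and 0.766 in WT (-0.64, adjusted p = 0.0167). The direction for Slc35c2 therefore depends on the probe. Slc35a1, the CMP-sialic acid carrier needed for sialylation, was lower in KO at 2.59, 2.62 and 2.16, against 3.36, 3.57 and 3.27 in WT (-0.47 ± 0.10, adjusted p = 0.00209). Slc35b2, which brings in the sulfate donor for proteoglycans, averaged 3.44 in KO and 4.72 in WT (-0.46 ± 0.12, adjusted p = 0.00853), a call that ended with no trend in the variance prior (0.0505). Slc35a4 was lower in KO too, at 1.57 ± 0.227, against 2.33 ± 0.174 in WT. The carriers of UDP-galactose (Slc35a2) and UDP-N-acetylglucosamine (Slc35a3) had log2 changes of 0.16 and 0.12 and did not pass, nor did Slc35b1, Slc35b3, Slc35b4, Slc35d2 and Slc35f5, between -0.25 and 0.12.

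Slc35e3, Slc35e4 and Slc35f2, members of family 35 without an established substrate, had smaller changes. Slc35e3 averaged 10.3 in KO and 8.20 in WT (log2 change 0.33, adjusted p = 0.00651), and 1 of 2 probes for Slc35e4 averaged 3.91 in KO and 2.90 in WT (0.43, adjusted p = 0.00186). The other Slc35e4 probe, at 0.19, did not pass. Slc35f2 passed at 0.24 (adjusted p = 0.0371), a call that ended without any array but KO array 1 (0.0656 to 0.121). Within family 29, Slc29a3, the lysosomal and mitochondrial nucleoside carrier, joined Slc29a1 in being lower in KO. It read 5.58, 5.65 and 5.42 in KO, against 8.87, 8.58 and 7.35 in WT (-0.57 ± 0.08, adjusted p = 0.000255), with no overlap.

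Vitamin, choline, haem and lipid carriers gave 3 probes (27.3%) higher in KO and 3 (27.3%) lower in KO of 11. The folate importer was among those lower in KO. Slc19a1, the reduced folate carrier, read 2.93, 1.78 and 1.91 in KO, against 3.84, 4.61 and 4.22 in WT (log2 change -0.97 ± 0.16, adjusted p = 0.000502). KO array 1 was the highest KO array but still below all WT arrays. Slc19a2, the thiamine carrier of the same family and just under the intensity limit, averaged 0.767 in KO and 1.11 in WT (-0.53, adjusted p = 0.00566). Choline transporter-like genes went opposite ways. Slc44a2 read 2.11, 2.80 and 2.64 in KO, against 5.39, 4.43 and 4.54 in WT (-0.93 ± 0.12, adjusted p = 7.69e-05), while Slc44a1 averaged 1.26 in KO and 0.885 in WT (0.50 ± 0.14, adjusted p = 0.0113), a call that ended without WT array 1 (adjusted p = 0.0516). Slc46a3 and Slc49a4, both lysosomal membrane proteins, were higher in KO, Slc46a3 at 2.07 ± 0.157, against 1.54 ± 0.0194 in WT, and Slc49a4 at 7.57 ± 0.358, against 5.68 ± 0.209 in WT. Slc48a1, a haem carrier of lysosomes, was lower in KO at a log2 change of -0.23 (adjusted p = 0.0371), and the call ended without any array but KO array 2 (0.0509 to 0.128). The fatty acid transport genes Slc27a1, Slc27a3, Slc27a4 and Slc27a5 did not pass, Slc27a5 at 0.31 narrowly (adjusted p = 0.0510). The riboflavin carrier Slc52a3 at 0.24 did not pass either.

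The mitochondrial family 25 had the most members, 27 probes, with 9 (33.3%) higher in KO and 5 (18.5%) lower in KO. Both shares were near those of equally bright probes (32.0% and 21.2%), and the median log2 change was 0.13. Carriers of citrate, oxoglutarate and acylcarnitine were lower in KO. Slc25a11, the oxoglutarate/malate exchanger of the malate-aspartate shuttle, read 4.05, 4.47 and 4.50 in KO, against 6.87, 6.85 and 6.72 in WT (-0.65 ± 0.08, adjusted p = 4.70e-05). Slc25a1, the citrate exporter that feeds fatty acid synthesis, read 4.40, 4.83 and 4.96 in KO, against 7.37, 7.31 and 6.61 in WT (-0.59 ± 0.08, adjusted p = 0.000163). Slc25a39, which imports glutathione, read 9.59, 9.67 and 9.95 in KO, against 13.3, 13.9 and 13.4 in WT (-0.48 ± 0.07, adjusted p = 0.000176). None of these overlapped between genotypes. Among the members, the amino acid exchangers beside them in the inner membrane ran the other way or did not pass. Slc25a22, a glutamate carrier, read 10.03, 12.7 and 11.3 in KO, against 8.52, 8.06 and 7.12 in WT (0.52 ± 0.10, adjusted p = 0.00143). Its relative Slc25a18, under the intensity limit, was lower in KO, with means of 0.219 in KO and 0.448 in WT (-1.13 ± 0.37, adjusted p = 0.0285). Slc25a13, the aspartate/glutamate exchanger of liver, passed at 0.24 (adjusted p = 0.0328) but not without KO array 2, KO array 3, WT array 1 or WT array 3 (0.0560 to 0.132). Its relative Slc25a12 had a log2 change of 0.09.

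Mitochondrial carriers of haem synthesis, nucleotides and iron supplied most of the higher-in-KO probes. Both probes of Slc25a38, which imports glycine for haem synthesis, were higher in KO. The brighter read 63.4, 79.6 and 78.5 in KO, against 44.6, 44.4 and 43.8 in WT (log2 change 0.73 ± 0.09, adjusted p = 6.86e-05), and the other averaged 35.4 in KO and 22.5 in WT (0.65 ± 0.08, adjusted p = 7.68e-05). Slc25a37, the iron importer of red cell precursors, averaged 4.28 ± 0.402 in KO and 3.37 ± 0.107 in WT (0.34, adjusted p = 0.00901), and Slc25a28, its counterpart in other cells, had a log2 change of 0.19 and did not pass. The erythroid markers, of which 1 of 9 tested was higher in KO, had overlapping summed intensities of 1488 to 1592 in KO and 1489 to 1532 in WT. The part of red cell precursors in the results of Slc25a38 and Slc25a37 was not tested. Both probes of Slc25a33, a pyrimidine nucleotide carrier, were higher in KO, 1 at 13.2, 14.1 and 14.3, against 9.05, 9.27 and 7.37 in WT (0.71 ± 0.09, adjusted p = 0.000106), and the other by 0.44. Slc25a24, the calcium-regulated ATP-magnesium/phosphate carrier, had 2 probes that differed. The brighter read 86.9, 78.0 and 77.8 in KO, against 56.8, 48.6 and 55.3 in WT (0.60 ± 0.08, adjusted p = 0.000157), and the other 34.4, 32.5 and 34.4 in KO, against 32.5, 33.2 and 27.9 in WT (0.12 ± 0.08, adjusted p = 0.264). Under quantile normalization the changes of the brighter probes of Slc25a38 and Slc25a24 were 0.47 and 0.34, and both still passed. Slc25a45 passed at 0.23 (adjusted p = 0.0384), but not without KO array 1 or any WT array (0.0509 to 0.112), with the replicate block (0.0539), with no trend in the variance prior (0.0914) or under quantile (0.0808) or cyclic loess normalization (log2 change 0.15, adjusted p = 0.169).

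The carriers that exchange ADP, ATP and phosphate for oxidative phosphorylation had changes whose size or sign depended on scaling. Slc25a4, the ADP/ATP exchanger of muscle and heart, read 231, 227 and 223 in KO, against 211, 214 and 191 in WT (log2 change 0.15 ± 0.08, adjusted p = 0.144). Slc25a3, the phosphate importer, read 153, 179 and 169 in KO, against 151, 149 and 138 in WT (0.19 ± 0.08, adjusted p = 0.0814). The signs of both depended on it. Under quantile normalization they were -0.21 (adjusted p = 0.0285) for Slc25a4 and -0.20 (0.0190) for Slc25a3, so neither has a direction here. Slc25a5, the ubiquitous ADP/ATP exchanger, was lower in KO at 79.3, 97.3 and 95.3, against 109, 108 and 104 in WT (-0.24 ± 0.09, adjusted p = 0.0413), a call that ended without any array but KO array 2 (adjusted p = 0.0513 to 0.131), with the replicate block (0.0549), with no dim filter (0.0700) and with no trend in the variance prior (0.107). Its decrease was larger under quantile (-0.54, adjusted p = 0.000169) and cyclic loess normalization (-0.53, adjusted p = 0.000184), and without KO array 1 it was -0.15. The remaining probes, for Slc25a14, Slc25a23, Slc25a25, Slc25a27, Slc25a29, Slc25a32, Slc25a35 and Slc25a46, did not pass, with log2 changes between -0.29 and 0.37. Slc66a2, put in no class, had a log2 change of 0.10 and did not pass.

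**Figure D4:**
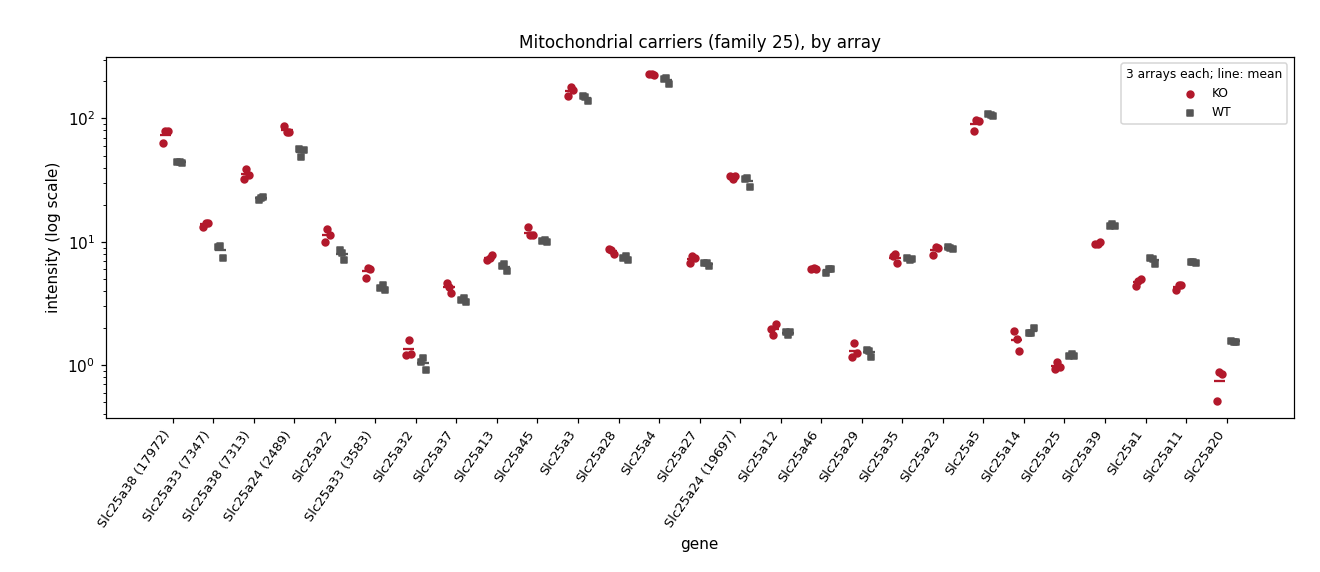
Intensity on each array (y axis, log scale) of the 27 mitochondrial carrier probes (x axis), ordered by log2 change from highest to lowest; round points are KO arrays, square points WT arrays and lines their means. A Slc25a38 probe (log2 change 0.73) stands first and Slc25a20 (-1.11) last.

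Transport genes outside the Slc nomenclature were each read from the brightest probe. Of all tested probes, 24.1% were higher in KO and 17.2% lower in KO. These shares depend on brightness, at 32.0% and 21.2% of tested probes with a mean intensity of at least 0.95 and 7.81% and 9.16% of those under it. Neither background was matched to the brightness of the lists, so their counts are only described. Of 23 tested solute carriers under other symbols, 6 were higher in KO and 3 lower in KO. They included Unc93b1, which moves Toll-like receptors to endosomes, at 8.10 in KO and 5.30 in WT (log2 change 0.61, adjusted p = 9.73e-05), and Spns1, a lysosomal lysophospholipid carrier, at 3.02 in KO and 4.29 in WT (-0.51, adjusted p = 0.000748). Of 31 ion pumps and ATPases, 10 were higher in KO and 9 lower in KO. Atp1b1, a beta subunit of the sodium pump whose gradient drives many solute carriers, read 0.363, 0.448 and 0.406 in KO, against 1.40, 1.21 and 1.26 in WT (-1.67 ± 0.16, adjusted p = 8.95e-06). Atp2a1, the calcium pump of fast skeletal muscle, averaged 1.43 in KO and 0.570 in WT (1.34 ± 0.16, adjusted p = 5.78e-05), beside skeletal muscle markers of which 7 of 9 were higher in KO, whose part was not tested. Of 21 ABC transporters, 6 were higher in KO and 6 lower in KO. Abcg2, an exporter of drugs and porphyrins, read 3.31, 3.85 and 3.64 in KO, against 6.37, 7.50 and 6.40 in WT (-0.91 ± 0.09, adjusted p = 1.74e-05). Of 7 transporter partner proteins, Cab39, a scaffold of the kinases that act on chloride cotransporters, was higher in KO (0.23, adjusted p = 0.0470). Cltrn, which takes neutral amino acid carriers of the kidney to the surface, was lower in KO (-0.79, adjusted p = 0.0317). Of 4 tested aquaporins, limma called 0, and 0 had an unadjusted p under 0.05.

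Below the intensity limit lay 163 Slc probes, of which 93 were bright enough to test. Among these, 10 (10.8%) were higher in KO and 11 (11.8%) lower in KO, against 7.81% and 9.16% of all tested probes under the limit and 24.1% and 17.2% of all tested probes. Slc15a2, the proton-coupled peptide importer of kidney and brain and named here as the relative of Slc15a4, averaged 0.832 ± 0.253 in KO and 0.248 ± 0.0239 in WT (log2 change 1.71 ± 0.26, adjusted p = 0.000257). A pair of family 1 genes named as relatives of Slc1a4 were lower in KO. Slc1a6, a neuronal glutamate carrier, averaged 0.480 in KO and 1.26 in WT (-1.45 ± 0.23, adjusted p = 0.000363), and Slc1a5, the glutamine importer of growing cells, 0.345 in KO and 0.645 in WT (-0.95 ± 0.27, adjusted p = 0.0132). A dimmer Slc36a1 probe was higher in KO (0.58, adjusted p = 0.0167), where the probe above the limit, for this lysosomal amino acid carrier, had a log2 change of -0.26 and did not pass.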

How the data were processed

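The members, substrate classes and gene lists were chosen with earlier results of these data known. RNA from urogenital ridges was hybridised to 1-colour arrays, 3 per genotype. The deposited values are intensity per probe, already normalized by the authors to array medians near 1. No source used here gives the background correction or the software, and no detection flags were used. Gene names came from the platform annotation (15120 probes with 1 symbol, 38 with several, 5131 not listed). Intensities under the 5th percentile of positive values (0.0811) were raised to it, and log2 values were tested with limma 3.58.1 in R 4.3.3 (lmFit, eBayes with an intensity trend), KO minus WT, with Benjamini-Hochberg adjustment. A probe was tested with at least 2 values per genotype and a mean above the 25th percentile (0.217), called dim otherwise. A call is an adjusted p under 0.05. Values named in the text are called members of at least 1.5-fold, the brightest of each class, those at the limit, probes of 1 gene that disagree and list genes with the largest changes; the choice of any other member followed its values. The fit was checked on simulated data. The number of arrays limits the precision. Alternatives changed the normalization, floor, dim filter, variance prior, intensity limit and arrays.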

Additional observations from a re-analysis of the deposited data

How the results depend on the processing

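Of the 68 called members, 49 (28 higher in KO and 21 lower in KO) passed in the same direction in all 16 settings of normalization, floor, dim filter, variance prior, replicate block and left-out array, and 19 lost the call in at least 1. Settings other than a left-out array also ended the calls of Slc1a4, Slc38a7, Slc16a13, Slc25a13, Slc35f2, Slc48a1 and 1 probe of Slc16a6 (adjusted p = 0.0547 to 0.129, limma). Of the 60 not called, 15 passed in at least 1 setting. Leaving out 1 array gave 29 to 45 members higher in KO and 23 to 28 lower in KO, 3 to 4 higher in KO by at least 2-fold and 1 to 3 lower in KO by at least 2-fold, and a median log2 change of 0.10 to 0.12. The count lower in KO by at least 2-fold, 2 with all arrays, was 1 under quantile normalization and 1 under cyclic loess normalization. An intensity limit of 2 left 85 members, with 16 lower in KO, 0 lower in KO by at least 2-fold and a median log2 change of 0.16, and a limit of 0.5 gave 166 members with 5 lower in KO by at least 2-fold. The log2 change of Slc25a3 reversed to -0.20 under quantile normalization, and that of Slc25a4 to -0.21 under quantile normalization and -0.21 under cyclic loess normalization; the cause was not tested. Arrays with the same number did not deviate together (correlations of -0.0208 to 0.000590), and with the replicate block 37 members were higher in KO and 25 lower in KO. Members near the intensity limit have the lowest signal, and without detection flags their distance from background is unknown.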
